A study of Homo sapiens with 6 samples.

Results

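The exons described here are skipped-exon events in 54 genes of growth factor, TGF-beta, RAS, MAP kinase, mTOR, CAMK2 and Hippo signalling. An exon was taken when it lay on the same strand in a listed gene by GENCODE 29 and had at least 20 informative reads in the control pool and in at least 1 knockdown pool. Informative reads are those that fit only the form with the exon (inclusion reads) or only the form without it (exclusion reads). This gave 114 exons of 42 genes, out of 17943 exons of 7202 genes with the same depth in the whole series. The genes with no such exon were ERBB3, INSR, ACVR2A, SMAD5, NRAS, ARAF, MAP2K1, MAP2K5, MAP3K1, MAP3K4, PIK3CA and MTOR.

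The cells were MDA-LM2, a lung-metastatic derivative of the triple-negative breast cancer line MDA-MB-231, 48 h after transfection of small interfering RNAs (siRNAs) with a cationic lipid reagent. The siCtrl group (2 libraries) received a control siRNA, the siSNRPA1 group (3 libraries) siRNA against SNRPA1, and the siSNRPB group (1 library) siRNA against SNRPB. SNRPA1 encodes a component of U2 snRNP, the particle that binds the branch point of introns, and SNRPB encodes a core protein of the spliceosomal Sm ring. Values are deposited as 1 pool a group, so no value has a replicate or a standard deviation, and each test sets the reads of 1 pool against those of another rather than testing conditions. How the libraries of a group were pooled was not given in the sources used here, and the series' design text names more than 1 siRNA for SNRPB and in 1 place SNRPB2. Values given in threes follow the order siCtrl, siSNRPA1, siSNRPB.

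Growth factor receptors are kinases at the cell surface that, once bound by ligand, recruit adaptors such as SHC1 and GRB2 and the exchange factors SOS1 and SOS2, which load RAS with GTP. RAS then drives the RAF, MEK and ERK kinases, while PI3K, AKT and the mTOR complexes carry a parallel signal for growth and survival. Receptors for TGF-beta, activin and BMP are serine/threonine kinases that pass their signal to SMAD proteins. MDA-MB-231 cells and their derivatives are known for mutant RAS and RAF and for a mesenchymal, EGFR- and AXL-rich state.

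The pools held 5707839 (siCtrl), 7831446 (siSNRPA1) and 3396043 (siSNRPB) informative reads over all events. For the 114 signalling exons the median was 109, 138 and 60 informative reads, with ranges of 20 to 1869, 9 to 3281 and 3 to 891. Reads that fit an isoform of SNRPA1, relative to all such reads of the pool, stood at 18.5% of siCtrl in siSNRPA1 and at 230% in siSNRPB. Those of SNRPB stood at 136% and 12.4%. Among genes that mark breast cell types, CD44 had 40590 to 93980 such reads in each pool, the keratin KRT8 9976 to 22025, ESR1 12 to 51, PGR 0 to 11 and CDH1 0 to 20, as counts not corrected for gene length.

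The inclusion level used throughout is the authors' posterior mean, from 0 (always skipped) to 1 (always included). Reads in the flanking exons, which fit both forms, also enter it, and it lay below the share of inclusion reads for many signalling exons. In siCtrl, 55 of the 114 exons had 0 exclusion reads, and 9 of these nonetheless had a level under 0.5. The 135-nt coding exon of EGFR (chr7:55146606-55146740) is such a case, with levels of 0.44, 0.45 and 0.28. Its inclusion reads were 372, 488 and 105, its exclusion reads 0 in each pool, and 1293, 1634 and 575 further reads fitted both forms. A count of 0 among 372 reads allows an exclusion share of up to 0.806%, for counting error only. Calls below therefore need both the level and the reads to move.

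**Figure D1:**
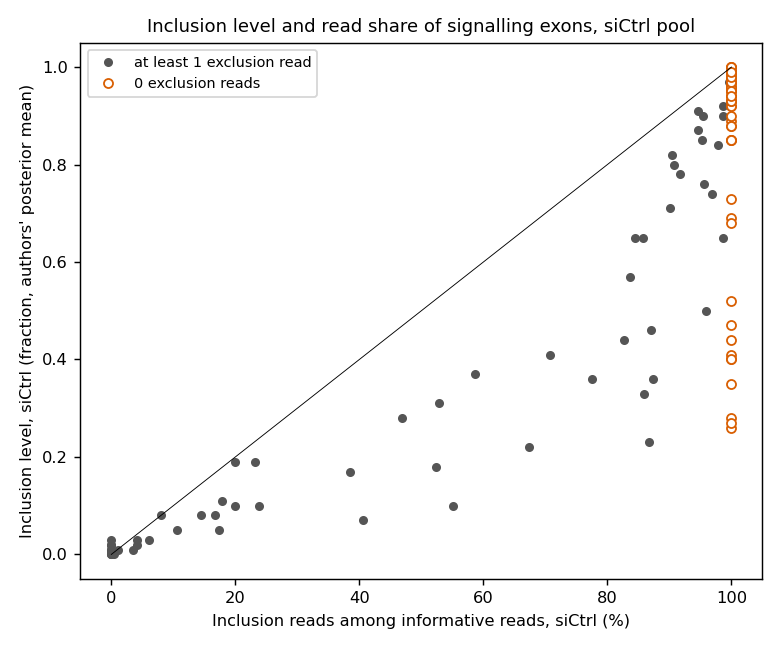
Inclusion level (authors' posterior mean, fraction) against the share of inclusion reads (%) in the siCtrl pool for the 114 signalling exons, with the diagonal of equal values. The 55 exons with 0 exclusion reads (open orange points) stand at 100% but spread over levels that include 9 values under 0.5.

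An exon was tested where both pools had at least 20 informative reads and at least 5 inclusion and 5 exclusion reads were present over the pair. It passed, and is said to have fallen or risen, at an adjusted p under 0.05 (two-sided Fisher's exact test, Benjamini-Hochberg adjustment over all tested exons of the series) with levels at least 0.1 apart and reads that differed the same way. Of the 114 exons, 53 in 31 genes were tested in at least 1 comparison and 17 in 16 genes passed in at least 1. The other 61 had too few reads of the rarer form, or too few in a pool, to be tested. Within the annotation 79 of the 114 lay wholly in coding sequence, 8 partly, 9 in 5' UTRs, 9 in noncoding transcripts, 6 in transcripts of nonsense-mediated decay, and 3 matched no annotated exon. In siCtrl the level was at least 0.9 for 41 exons, at most 0.1 for 24 and in between for 49, with a median of 0.7.

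Against siCtrl, 8 of 49 tested signalling exons fell in siSNRPA1 and 2 rose, where 12.8% of all 6461 tested exons fell and 4.18% rose. In siSNRPB 9 of 39 fell and 1 rose, where 16.7% of all 4244 tested exons fell and 4.62% rose. These shares, 16.3% and 4.08% in siSNRPA1 and 23.1% and 2.56% in siSNRPB, lay near those of all exons. The median difference was -0.03 in siSNRPA1 and -0.04 in siSNRPB, beside -0.02 and -0.01 over all tested exons. The comparisons share the control pool. The counts per role given below rest on few exons each and are to be read beside these shares over all exons.

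Sequences are shown for 6 coding exons that the results turn on, 4 whose level was lowest in siSNRPB and 2 whose level was highest there. They are transcript sequences of GENCODE 29 (GRCh38, the build of the files). Capitals mark the skipped exon, and lower case marks the 15 bases on each side that are joined when it is skipped. The exons are those of MAP3K3 (chr17:63634709-63634801, plus strand), SH2B1 (chr16:28873170-28873269, plus), SHC1 (chr1:154968204-154968257, minus), YAP1 (chr11:102186018-102186131, plus), MAPK7 (chr17:19380484-19380501, plus) and MAP2K7 (chr19:7905808-7905855, plus).
MAP3K3: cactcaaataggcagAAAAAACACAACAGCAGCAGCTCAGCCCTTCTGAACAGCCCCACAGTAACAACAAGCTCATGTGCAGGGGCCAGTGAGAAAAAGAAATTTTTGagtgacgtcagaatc
SH2B1: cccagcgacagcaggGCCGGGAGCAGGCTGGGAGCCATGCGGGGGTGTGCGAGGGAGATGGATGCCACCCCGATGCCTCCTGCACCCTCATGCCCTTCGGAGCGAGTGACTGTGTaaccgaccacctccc
SHC1: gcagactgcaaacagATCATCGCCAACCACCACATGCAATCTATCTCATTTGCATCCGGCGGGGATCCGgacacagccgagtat
YAP1: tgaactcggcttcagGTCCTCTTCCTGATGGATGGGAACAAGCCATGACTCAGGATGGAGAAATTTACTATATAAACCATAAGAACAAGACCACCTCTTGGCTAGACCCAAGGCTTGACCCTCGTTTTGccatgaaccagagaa
MAPK7: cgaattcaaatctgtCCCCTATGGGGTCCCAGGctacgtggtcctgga
MAP2K7: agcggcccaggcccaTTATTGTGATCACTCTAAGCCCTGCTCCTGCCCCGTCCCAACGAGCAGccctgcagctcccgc
The GC content of these exons ran from 45.6% (YAP1) and 46.2% (MAP3K3) over 53.7% (SHC1) and 56.3% (MAP2K7) to 68.0% (SH2B1) and 72.2% (MAPK7). The exons of MAP3K3, SHC1, YAP1, MAPK7 and MAP2K7 are multiples of 3 in length, so the reading frame is the same with and without them, while the 100-nt exon of SH2B1 shifts it.

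**Figure D2:**
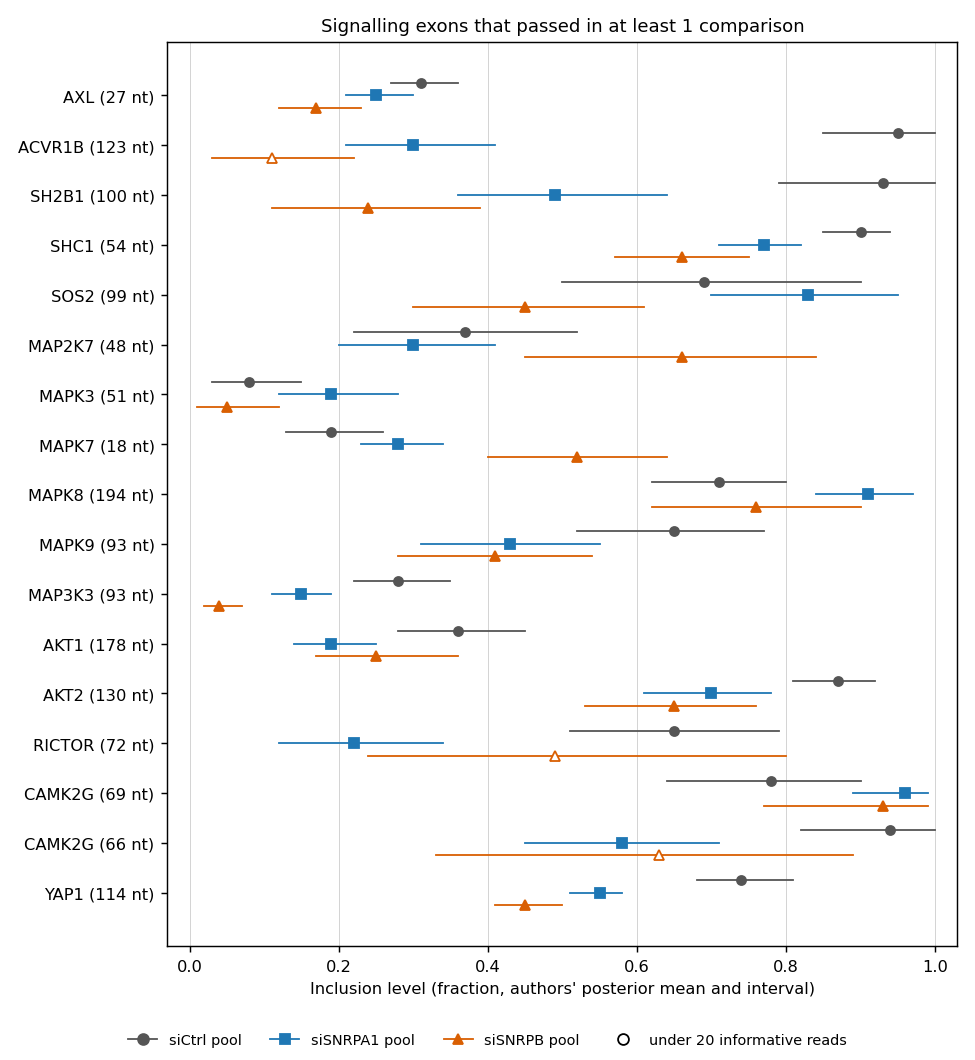
Inclusion level (fraction) in each pool for the 17 signalling exons that passed in at least 1 comparison, with the authors' interval as a line and open symbols for pools with under 20 informative reads. MAP3K3 stands at 0.28, 0.15 and 0.04 in siCtrl, siSNRPA1 and siSNRPB, and MAPK7 at 0.19, 0.28 and 0.52.

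Among the receptor kinases, exons of EGFR, MET, ERBB2 and IGF1R had too few exclusion reads to be tested. The 1214-nt exon of MET, the receptor of hepatocyte growth factor, had levels of 1.00, 0.99 and 0.99, with 0, 1 and 0 exclusion reads beside 1869, 3280 and 891 inclusion reads. The 230-nt exon of IGF1R, the receptor of insulin-like growth factor, had levels of 0.94, 0.87 and 0.63 with 0 exclusion reads in each pool. AXL, the receptor of GAS6, was the 1 receptor kinase tested. Its 27-nt coding exon (chr19:41239694-41239720) had levels of 0.31, 0.25 and 0.17. Inclusion and exclusion reads were 147 and 131, 113 and 103, and 28 and 54. The exon fell in siSNRPB (adjusted p = 0.0138, Fisher's exact test) and had an adjusted p of 1 by the same test in siSNRPA1. The read shares of siCtrl (52.9%) and siSNRPA1 (52.3%) lay close together, with siSNRPB (34.1%) below both.

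Among receptors of the TGF-beta family, 1 of 5 tested exons fell in siSNRPA1, and 0 of 2 passed in siSNRPB. The exon that fell belongs to ACVR1B, the type I receptor of activin and nodal. This 123-nt coding exon (chr12:51982686-51982808) is annotated in 1 transcript and had levels of 0.95 in siCtrl (the authors' interval 0.85 to 1.00), 0.30 in siSNRPA1 (0.21 to 0.41) and 0.11 in siSNRPB (0.03 to 0.22). In siCtrl each of 52 informative reads held the exon (100%, 95% Wilson bounds 93.1 to 100%), against 37 of 50 in siSNRPA1 (74.0%, 60.4 to 84.1%; adjusted p = 0.00048, Fisher's exact test). In siSNRPB 4 of 4 informative reads were inclusion reads, so the low level there rests on the 135 reads that fit both forms, and the exon was not tested.

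The remaining receptor exons of this family did not pass. TGFBR2 binds TGF-beta, and its 75-nt exon adds a stretch to the extracellular part in the longer isoform. Its levels were 0.11, 0.15 and 0.07, and its read shares 17.8%, 31.2% and 11.8%. Between the knockdowns the reads differed (adjusted p = 0.00794, Fisher's exact test), but the level differed by 0.08, under the minimum of 0.1. The 243-nt exon of TGFBR1, the kinase partner of TGFBR2, had levels of 0.26, 0.19 and 0.17 with 0, 4 and 0 exclusion reads. The 5' UTR exon of BMPR1A, a BMP receptor, had levels of 0.10, 0.08 and 0.05. An exon of ACVR1 that matched no annotated exon had 0.17, 0.05 and 0.24, the last from 7 informative reads.

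No SMAD exon passed. The 90-nt coding exon 3 of SMAD2, a signal carrier of TGF-beta and activin whose form without this exon can bind DNA, had levels of 0.33, 0.38 and 0.31. Its inclusion and exclusion reads were 55 and 9, 103 and 6, and 43 and 6. The 86-nt 5' UTR exon of SMAD2 went from 0.47 to 0.24 and 0.14 but had 0, 4 and 1 exclusion reads and could not be tested. SMAD3 (138 nt) had levels of 0.99, 0.98 and 0.99, and the 376-nt exon of SMAD4, the shared partner of the signalling SMADs, 0.99 in each pool. The 111-nt exon of SMAD3 was nearly always skipped, with a level of 0.01 in each pool.

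Adaptors and RAS activators had 2 falls in 3 tested exons in siSNRPA1 (SH2B1 and SHC1, beside SOS1). In siSNRPB there were 3 falls in 3 (SH2B1, SHC1 and SOS2). Over all tested exons 12.8% and 16.7% fell, and 3 exons are too few to set against these shares. The SOS1 exon in siSNRPB and the SOS2 exon in siSNRPA1 had too few exclusion reads for a test. SH2B1 is an adaptor of insulin, leptin and growth factor receptors, whose isoforms differ in their C-terminal ends. Its 100-nt exon, shown above, had levels of 0.93 in siCtrl (the authors' interval 0.79 to 1.00), 0.49 in siSNRPA1 (0.36 to 0.64) and 0.24 in siSNRPB (0.11 to 0.39). Inclusion and exclusion reads were 43 and 0, 34 and 13, and 9 and 15. The exon fell in siSNRPA1 (adjusted p = 0.0011) and in siSNRPB (adjusted p = 1.43e-07), and the level was 0.25 higher in siSNRPA1 than in siSNRPB (adjusted p = 0.038, all Fisher's exact test). With the reads of each pool scaled down to the total of the smallest pool, the last adjusted p was 0.114 (Fisher's exact test), and the authors' intervals of the knockdowns overlap.

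SHC1 links activated receptors to GRB2. The level of its 54-nt coding exon was 0.90 in siCtrl (0.85 to 0.94), 0.77 in siSNRPA1 (0.71 to 0.82) and 0.66 in siSNRPB (0.57 to 0.75). The exon was present in 309 of 324 siCtrl reads (95.4%, 95% Wilson bounds 92.5 to 97.2%), 315 of 359 in siSNRPA1 (87.7%, 83.9 to 90.7%) and 109 of 135 in siSNRPB (80.7%, 73.3 to 86.5%). The exon fell in siSNRPA1 (adjusted p = 0.00279) and in siSNRPB (adjusted p = 3.55e-05, Fisher's exact test). The difference between the knockdowns did not pass (adjusted p = 0.149, Fisher's exact test). In siSNRPA1 the read share differed from siCtrl by -7.63 percentage points, under 10 points, so the exon would not pass there on read shares, and with scaled reads the adjusted p was 0.0852.

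SOS2 and SOS1 exchange GDP for GTP on RAS. The 99-nt coding exon 8 of SOS2 (chr14:50174454-50174552) had levels of 0.69, 0.83 and 0.45 and exclusion reads of 0, 0 and 5 beside 59, 143 and 31 inclusion reads. It fell in siSNRPB (adjusted p = 0.022) and its level was 0.38 higher in siSNRPA1 than in siSNRPB (adjusted p = 0.00237, Fisher's exact test). The authors' intervals of siCtrl (0.50 to 0.90) and siSNRPB (0.30 to 0.61) overlap, the Bayes factor in the authors' deposited table is 1.79, and with scaled reads the fall had an adjusted p of 0.125. The 45-nt exon of SOS1 had levels of 0.91, 0.95 and 0.98 and did not pass. GRB2, the adaptor that carries SOS to the membrane, kept 0 exclusion reads at both its exons (123 and 169 nt), with levels of 0.93 to 0.99.

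Of the RAS and RAF genes, 2 exons were tested and neither passed. The 82-nt exon of HRAS (chr11:533277-533358), whose inclusion yields a shorter RAS protein, had levels of 0.07, 0.03 and 0.06. Its read shares were 40.5% (32 of 79), 18.9% (20 of 106) and 28.9% (24 of 83). The reads of siSNRPA1 differed from siCtrl (adjusted p = 0.00921, Fisher's exact test), while the level differed by -0.04. On read shares the exon would pass, and its Bayes factor for siSNRPA1 in the authors' deposited table is 169. The 154-nt exon of BRAF, the RAF kinase upstream of MEK, had levels of 0.76, 0.52 and 0.63 with 1, 9 and 1 exclusion reads (adjusted p = 0.0941 in siSNRPA1, Fisher's exact test).

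The MAP kinase cascade had the most tested exons, with 1 fall and 1 rise in 17 in siSNRPA1 and 2 falls and 1 rise in 18 in siSNRPB. MAP3K3 (MEKK3) activates the kinases above ERK5 and p38. Its 93-nt coding exon had levels of 0.28 in siCtrl (the authors' interval 0.22 to 0.35), 0.15 in siSNRPA1 (0.11 to 0.19) and 0.04 in siSNRPB (0.02 to 0.07). Of 141 informative siCtrl reads 66 held the exon (46.8%, 95% Wilson bounds 38.8 to 55.0%), against 52 of 183 in siSNRPA1 (28.4%, 22.4 to 35.3%) and 9 of 130 in siSNRPB (6.92%, 3.68 to 12.6%). The exon fell in siSNRPA1 (adjusted p = 0.00502) and in siSNRPB (adjusted p = 3.3e-12), and its level was 0.11 higher in siSNRPA1 than in siSNRPB (adjusted p = 3.01e-05, Fisher's exact test). The 3 read-share intervals do not overlap, while with scaled reads the adjusted p in siSNRPA1 was 0.0881.

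MAPK7 (ERK5) is the MAP kinase below MEKK3 and MEK5. Its 18-nt exon moved in the other direction, with levels of 0.19 in siCtrl (0.13 to 0.26), 0.28 in siSNRPA1 (0.23 to 0.34) and 0.52 in siSNRPB (0.40 to 0.64). Inclusion reads were 26 of 130 (20%, 95% Wilson bounds 14.0 to 27.7%), 62 of 207 (30.0%, 24.1 to 36.5%) and 35 of 66 (53.0%, 41.2 to 64.6%). The exon rose in siSNRPB (adjusted p = 5.19e-05), did not pass in siSNRPA1 (adjusted p = 0.124) and had a level 0.24 lower in siSNRPA1 than in siSNRPB (adjusted p = 0.00702, Fisher's exact test). The other exons of MAPK7 had 0 exclusion reads in each pool.

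MAP2K7 (MKK7) phosphorylates the JNK kinases. Its 48-nt coding exon 2 had levels of 0.37, 0.30 and 0.66, and its inclusion and exclusion reads were 17 and 12, 25 and 22, and 19 and 3. It passed in neither comparison with siCtrl (adjusted p = 0.906 in siSNRPA1 and 0.124 in siSNRPB), but its level was 0.36 lower in siSNRPA1 than in siSNRPB (adjusted p = 0.0336, Fisher's exact test). With 22 informative reads in siSNRPB this rests on few reads, and with scaled reads the adjusted p was 0.0783. The 103-nt exon of MAP2K4 (MKK4), the other JNK kinase kinase, had levels of 0.80, 0.70 and 0.74 and did not pass.

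The JNK genes themselves changed at 5' UTR exons. The 194-nt exon of MAPK8 (JNK1, chr10:48308095-48308288) had levels of 0.71 in siCtrl (0.62 to 0.80), 0.91 in siSNRPA1 (0.84 to 0.97) and 0.76 in siSNRPB (0.62 to 0.90). Its inclusion reads were 165 of 183 (90.2%, 95% Wilson bounds 85.0 to 93.7%), 289 of 294 (98.3%, 96.1 to 99.3%) and 79 of 83 (95.2%, 88.3 to 98.1%), and it rose in siSNRPA1 (adjusted p = 0.00094, Fisher's exact test). On read shares the rise is 8.14 percentage points, under 10, and with scaled reads its adjusted p was 0.051. The 93-nt exon of MAPK9 (JNK2, chr5:180286975-180287067) had levels of 0.65, 0.43 and 0.41, with 48 and 8, 42 and 18, and 25 and 18 inclusion and exclusion reads. It fell in siSNRPB (adjusted p = 0.0107) and did not pass in siSNRPA1 (0.112, Fisher's exact test). The authors' intervals of siCtrl (0.52 to 0.77) and siSNRPB (0.28 to 0.54) overlap for MAPK9, and the Bayes factor in the authors' deposited table is 4.6.

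MAPK3 (ERK1) had a 51-nt exon (chr16:30115595-30115645) that is annotated in a transcript of nonsense-mediated decay. Its levels were 0.08, 0.19 and 0.05 and its inclusion reads 4 of 50, 18 of 71 and 2 of 48. The level was 0.14 higher in siSNRPA1 than in siSNRPB (adjusted p = 0.0126), while siSNRPA1 against siCtrl did not pass (adjusted p = 0.0521, Fisher's exact test). With scaled reads the difference between the knockdowns had an adjusted p of 0.0505, and the authors' intervals (0.12 to 0.28 and 0.01 to 0.12) touch.

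In MAP2K3 (MKK3), which activates p38, 3 exons near the 5' end share their exclusion reads (251, 402 and 220). The 125-nt 5' UTR exon had inclusion reads of 53, 31 and 8, or 17.4%, 7.16% and 3.51% (adjusted p = 0.000388 in siSNRPA1 and 4.01e-06 in siSNRPB, Fisher's exact test). Its levels of 0.05, 0.02 and 0.01 differed by less than 0.1, so it did not pass. The authors' Bayes factors for it are 6759 in siSNRPA1 and 1e+12 in siSNRPB. MAP2K3 has near-identical copies in the genome, which makes its values uncertain. MAP4K4, a kinase upstream of JNK, had levels of 0.19, 0.12 and 0.19 at a 9-nt exon and of 0.65, 0.72 and 0.40 at a 192-nt exon. The latter lost 0.25 in siSNRPB in level, with read shares of 98.7% in siCtrl and 97.0% in siSNRPB, and did not pass (adjusted p = 0.241, Fisher's exact test). For this loss the authors' intervals (0.59 to 0.71 and 0.34 to 0.47) do not overlap, and their Bayes factor is 1e+12. A 231-nt exon of MAP4K4 had levels of 0.10, 0.25 and 0.12. It did not pass in siSNRPA1 (adjusted p = 0.128, Fisher's exact test), where the authors' Bayes factor is 1e+12. The 79-nt exon of MAPK14 (p38 alpha) had levels of 0.97, 1.00 and 0.99.

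**Figure D3:**
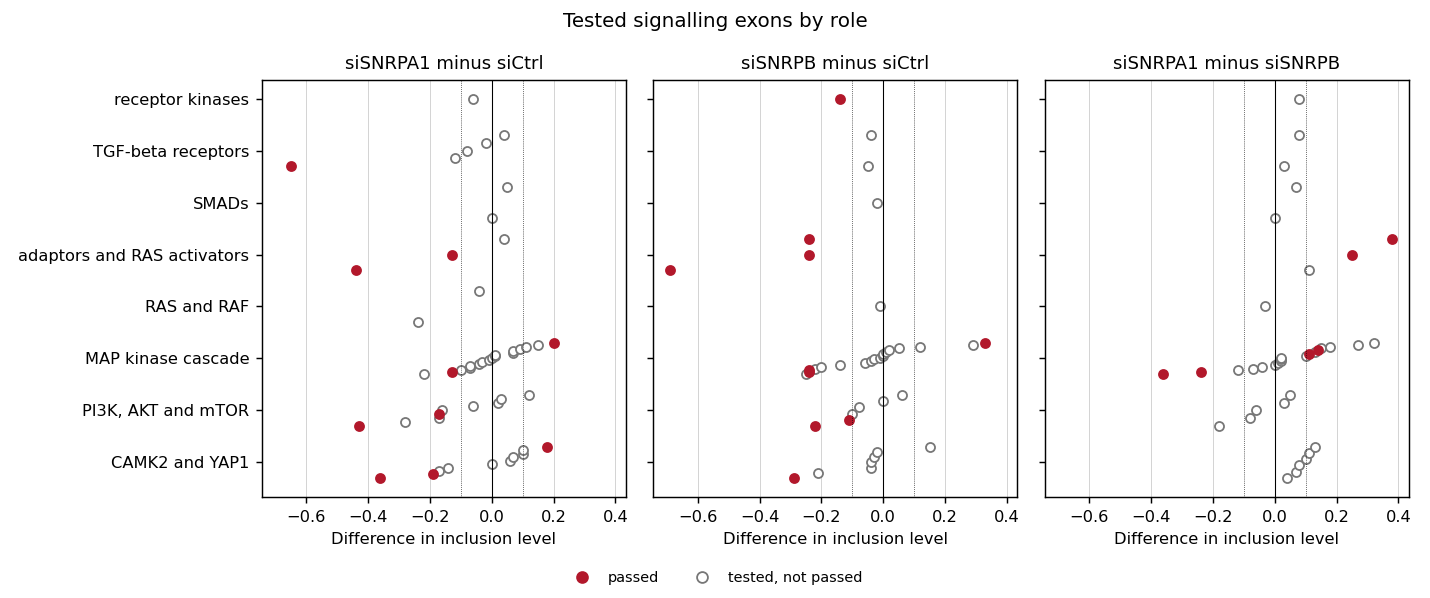
Difference in inclusion level for each tested signalling exon, grouped by role, in siSNRPA1 minus siCtrl, siSNRPB minus siCtrl and siSNRPA1 minus siSNRPB. Filled red points passed, open points did not, and dotted lines mark differences of 0.1. The 3 tested adaptor exons passed as falls in siSNRPB, where 16.7% of all tested exons fell, and the MAP kinase exons lie on both sides of 0.

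Genes of PI3K, AKT and mTOR had 2 falls in 9 tested exons in siSNRPA1 and 2 in 6 in siSNRPB. AKT1 and AKT2 are the kinases below PI3K, and the exons that passed lie near the start of their transcripts. The 178-nt 5' UTR exon of AKT1 (chr14:104793127-104793304) had levels of 0.36 in siCtrl (the authors' interval 0.28 to 0.45), 0.19 in siSNRPA1 (0.14 to 0.25) and 0.25 in siSNRPB (0.17 to 0.36). Inclusion reads were 62 of 71 (87.3%, 95% Wilson bounds 77.6 to 93.2%), 44 of 66 (66.7%, 54.7 to 76.8%) and 28 of 43 (65.1%, 50.2 to 77.6%). It fell in siSNRPA1 (adjusted p = 0.0192) and in siSNRPB (adjusted p = 0.026, Fisher's exact test). An 84-nt form of the exon, which has the same exclusion reads, did not pass (adjusted p = 0.0668 and 0.103, Fisher's exact test). For siSNRPB the authors' deposited table has a Bayes factor of 0.56 for the 178-nt form, and with scaled reads its adjusted p was 0.0605 there and 0.144 in siSNRPA1.

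The 130-nt exon of AKT2 (chr19:40265222-40265351), partly coding, had levels of 0.87 (0.81 to 0.92), 0.70 (0.61 to 0.78) and 0.65 (0.53 to 0.76). Inclusion reads were 243 of 257 (94.6%, 95% Wilson bounds 91.1 to 96.7%), 181 of 202 (89.6%, 84.6 to 93.1%) and 73 of 86 (84.9%, 75.8 to 90.9%). It fell in siSNRPB (adjusted p = 0.0279) and did not pass in siSNRPA1 (0.119, Fisher's exact test), where the authors' intervals do not overlap. The read share differed by -9.67 percentage points in siSNRPB, under 10 points. An overlapping 93-nt form with the same exclusion reads had levels of 0.57, 0.29 and 0.47. It did not pass in siSNRPA1 (adjusted p = 0.060) or in siSNRPB (adjusted p = 0.277, Fisher's exact test). The authors' Bayes factors in siSNRPA1 and siSNRPB are 19.5 and 25.4 for the 130-nt form and 86.6 and 0.46 for the 93-nt form.

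RICTOR is the subunit that defines mTOR complex 2. Its 72-nt coding exon 32 (chr5:38949356-38949427) had levels of 0.65 in siCtrl, 0.22 in siSNRPA1 and 0.49 in siSNRPB. Inclusion and exclusion reads were 38 and 7, 12 and 10, and 9 and 1. It fell in siSNRPA1 (adjusted p = 0.0484, Fisher's exact test), and siSNRPB had too few reads for a test. The 83-nt exon of RPTOR, the corresponding subunit of mTOR complex 1, had levels of 0.85, 0.97 and 0.91 and did not pass. TSC1 and TSC2 restrain mTOR complex 1, and the 6 exons of TSC1 had 0 exclusion reads in each pool with levels of 0.76 to 0.97. A 219-nt exon of a noncoding TSC2 transcript had levels of 0.02, 0.04 and 0.30, the last from 13 inclusion and 6 exclusion reads, 1 read short of a test. In PIK3CB, a catalytic PI3K subunit, the 179-nt exon had levels of 0.98, 0.98 and 0.96.

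CAMK2G and CAMK2D encode calcium/calmodulin-dependent kinases whose isoforms differ in the linker between the kinase and assembly domains. Which of the exons below encode this linker was not examined. Of the CAMK2G exons below, those of 55, 66 and 69 nt are exons 4, 5 and 15 of 22 in an annotated transcript. The 66-nt coding exon of CAMK2G (chr10:73852254-73852319) had levels of 0.94, 0.58 and 0.63 with 49 and 0, 61 and 11, and 12 and 0 inclusion and exclusion reads, and fell in siSNRPA1 (adjusted p = 0.014, Fisher's exact test), though not with scaled reads (0.184). The 69-nt coding exon (chr10:73825279-73825347) had levels of 0.78 (0.64 to 0.90), 0.96 (0.89 to 0.99) and 0.93 (0.77 to 0.99) and rose in siSNRPA1 (adjusted p = 0.0357, Fisher's exact test). Its inclusion reads were 66 of 72 (91.7%, 95% Wilson bounds 83.0 to 96.1%), 80 of 80 (100%, 95.4 to 100%) and 35 of 35 (100%, 90.1 to 100%). The read share differed by 8.33 percentage points, under 10. The authors' deposited table has a Bayes factor of 4.21 for this rise and 38.4 for the fall of the 66-nt exon. The 55-nt exon of CAMK2G had levels of 0.82, 0.92 and 0.79 and did not pass. In CAMK2D the exons of 33, 42 and 60 nt were skipped in each pool, with levels of 0.01 to 0.03, and share their exclusion reads (61, 106 and 60).

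YAP1 is the transcriptional coactivator held back by the Hippo kinases. Its 114-nt exon 4, shown above, encodes the second WW domain. The level was 0.74 in siCtrl (the authors' interval 0.68 to 0.81), 0.55 in siSNRPA1 (0.51 to 0.58) and 0.45 in siSNRPB (0.41 to 0.50). The exon was read in 438 of 452 siCtrl informative reads (96.9%, 95% Wilson bounds 94.9 to 98.1%), 737 of 852 in siSNRPA1 (86.5%, 84.0 to 88.6%) and 337 of 393 in siSNRPB (85.8%, 81.9 to 88.9%). It fell in siSNRPA1 (adjusted p = 1.14e-08) and in siSNRPB (adjusted p = 1.09e-07), and the reads of the knockdowns did not differ beyond counting error (adjusted p = 0.831, Fisher's exact test). The level was nonetheless 0.10 higher in siSNRPA1 than in siSNRPB, and the authors' intervals of the knockdowns do not overlap. The 48-nt exon 6 had levels of 0.44, 0.30 and 0.23 with 81 and 17, 109 and 47, and 34 and 13 reads, and did not pass (adjusted p = 0.0713 and 0.294, Fisher's exact test). The authors' Bayes factors for exon 6 are 3.87 in siSNRPA1 and 41.0 in siSNRPB.

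**Figure D4:**
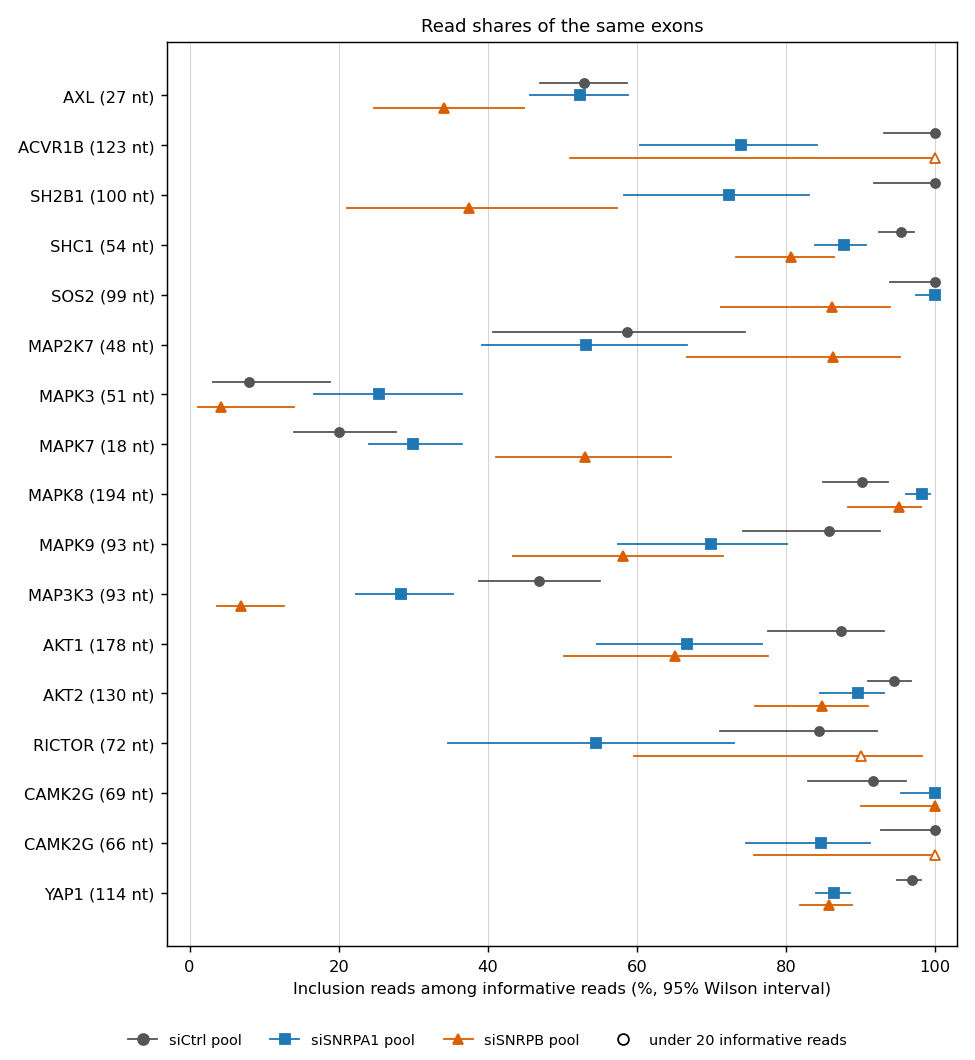
Share of inclusion reads among informative reads (%, with 95% Wilson boundss for counting error) for the same 17 exons in each pool. The siCtrl share of YAP1 (96.9%) lies above those of both knockdowns (86.5% and 85.8%), and that of MAP3K3 goes from 46.8% over 28.4% to 6.92%.

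Set directly against each other, the knockdowns differed at 6 of 38 tested signalling exons. In siSNRPA1 2 exons were lower (MAP2K7 and MAPK7), where 6.38% of all 5082 tested exons were, and 4 were higher (SH2B1, SOS2, MAPK3 and MAP3K3), where 8.28% of all were. The shares among signalling exons were 5.26% and 10.5%. The median difference was 0.06 over signalling exons and 0 over all tested exons. AXL differed in reads between the knockdowns (adjusted p = 0.0275, Fisher's exact test) but by 0.08 in level. The 162-nt exon of MAP4K4 also differed in reads (adjusted p = 0.0222, Fisher's exact test), with shares of 56.0% in siSNRPA1 and 76.3% in siSNRPB. Its levels of 0.23 and 0.21 lay less than 0.1 apart and differed the other way.

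The 12 exons that fell in either knockdown had a median length of 96 nt (27 to 178), 9 were multiples of 3 and 9 lay within coding sequence. The 36 exons tested without passing had a median length of 102 nt, with 21 multiples of 3 and 22 within coding sequence. The median siCtrl level was 0.715 in the former and 0.225 in the latter. Part of this gap was fixed in advance. A fall needs a level at least 0.1 lower, so exons with a siCtrl level under 0.1 could not fall. The 3 exons that rose were 18, 69 and 194 nt long, with a median siCtrl level of 0.71. Each of the 17 passing exons has an annotated skipping form in GENCODE. No signalling exon overlapped a gene on the opposite strand, while 13 pairs of them overlap each other and share reads.

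Reads that fit an isoform were also summed over the exons of each gene, scaled to reads per 1000000 of the pool (RPM), as a rough measure of transcript abundance within a gene across pools. Of 44 listed genes that reached 200 such reads in any pool, 0 were past 2-fold in siSNRPA1 or in siSNRPB, where 1.97% and 8.98% of all 7526 genes were. No test is possible with 1 pool a group. The median ratio to siCtrl was 1.08 in siSNRPA1 (0.61 to 1.67) and 0.98 in siSNRPB (0.50 to 1.68). TSC2 stood lowest in siSNRPA1, at 102, 62.3 and 52.7 RPM. PIK3CA, a catalytic PI3K subunit, had 52.7, 39.0 and 26.6, and AXL had 137, 103 and 77.8. ACVR1B stood highest in siSNRPA1, with 15.4, 25.6 and 23.8. CAMK2D had 76.0, 98.1 and 127, YAP1 had 137, 177 and 222, and TGFBR2 had 42.9, 42.9 and 70.0. A sum of this kind also moves with the inclusion of the exons themselves, and fewer cells of a kind cannot be told apart from less RNA per cell.

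**Figure D5:**
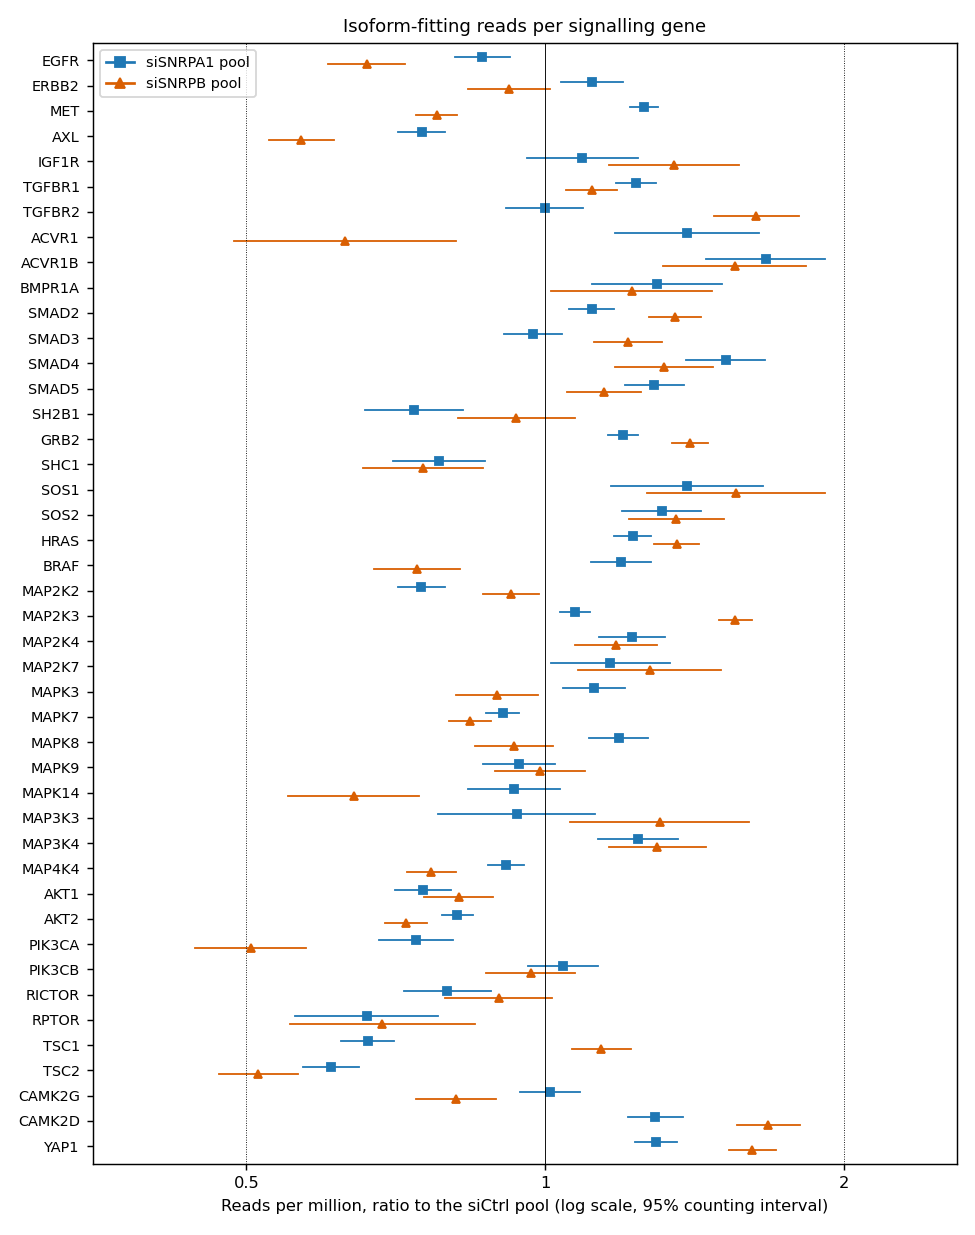
Ratio to siCtrl of isoform-fitting RPM for the 44 listed genes that reached 200 such reads in any pool, on a log scale with 95% counting intervals. The points lie between the 2-fold lines, from 0.50 (PIK3CA in siSNRPB) to 1.68 (CAMK2D in siSNRPB).

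Other genes of the pathways were followed as 6 lists. Together they had 10 falls and 1 rise in 121 tested exons in siSNRPA1, and 15 falls and 8 rises in 87 in siSNRPB, with median differences of -0.02 and 0. The rates over all tested exons are those given above. Levels are again given in threes, and a knockdown not named with a fall or rise did not pass there or could not be tested. Read shares moved by less than 10 percentage points for the falls of EPHA2, ERRFI1, NRG1, GSK3B and TEAD4. The same holds for the fall of RIT1 in siSNRPB.

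Of 20 tested exons of further receptors, ligands and receptor regulators, 3 fell in siSNRPA1 and 0 rose. They were in the ephrin receptor EPHA2 (0.73, 0.47 and 0.67) and in VEGFA, the endothelial growth factor, whose 97-nt exon had levels of 0.31, 0.17 and 0.24 and whose 54-nt exon had 0.24, 0.13 and 0.22. In siSNRPB 2 of 16 fell and 1 rose. PDGFA, a ligand of the PDGF receptors, rose at a 69-nt exon (0.08, 0.06 and 0.38), and differed between the knockdowns (adjusted p = 5.74e-06, Fisher's exact test). ERRFI1, an inhibitor of EGFR, fell (0.67, 0.20 and 0.39), as did NRG1, a ligand of ERBB3 (0.99, 0.94 and 0.85). Among other TGF-beta and BMP genes 1 fell and 1 rose in each knockdown, out of 19 and 9 tested. The rise was in MAP3K7 (TAK1), a kinase activated by TGF-beta, at an 81-nt exon (0.19 in siCtrl, 0.46 in siSNRPA1 and 0.56 in siSNRPB). LTBP4, which binds latent TGF-beta, fell in siSNRPB (1.00, 0.98 and 0.77), and ZFYVE16 fell in siSNRPA1 (0.14, 0.01 and 0.02).

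Of other adaptors, RAS, RAF and RAS regulators, 2 of 23 fell in siSNRPA1 and 1 of 16 in siSNRPB. RIT1, a RAS-like GTPase, fell from 0.96 to 0.61 in siSNRPA1 and to 0.77 in siSNRPB at a 149-nt coding exon, and RGL1, an exchange factor of the RAL GTPases, fell in siSNRPA1 (0.83, 0.28 and 0.29). Other MAP kinase genes had 2 falls in 20 exons in siSNRPA1 and 4 in 13 in siSNRPB, with 0 rises. PAK4 fell from 0.73 to 0.54 and 0.49 at a 73-nt 5' UTR exon. An overlapping 83-nt form with the same exclusion reads is counted as a separate fall in siSNRPB. The kinase MKNK1 fell in siSNRPA1 at a 98-nt exon (0.93, 0.64 and 0.92) and MINK1 in siSNRPB (0.89, 0.89 and 0.65).

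The list of other PI3K, AKT and mTOR genes had 1 fall in 29 tested exons in siSNRPA1, in GSK3B (0.98, 0.85 and 0.87), a kinase inhibited by AKT, which fell in siSNRPB as well. In siSNRPB 6 of 27 fell and 4 rose, in 7 genes, with the 4 rises at overlapping pairs of exons of FLCN and RPS6KB2. LAMTOR2, part of the complex that holds mTOR complex 1 on lysosomes, fell (0.67, 0.31 and 0.35). NPRL2, a subunit of the complex that restrains mTOR complex 1, fell at a 164-nt exon with an overlapping 169-nt form (0.44, 0.35 and 0.14), and differed between the knockdowns (adjusted p = 1.91e-07, Fisher's exact test). FLCN, which acts on the RAG GTPases, rose at a 283-nt exon that matched no annotated exon (0.08, 0.15 and 0.39). Its inclusion and exclusion reads were 59 and 13 in siCtrl and 149 and 2 in siSNRPB. Most informative reads thus held the exon in both pools, despite the low levels. Between the knockdowns 5 of 31 exons of this list were higher in siSNRPA1 and 0 lower, where 8.28% and 6.38% of all tested exons were. The 5 include both overlapping forms of NPRL2, which share their exclusion reads. Of other calcium/calmodulin kinase and Hippo genes, TEAD4, a DNA-binding partner of YAP1, fell in siSNRPA1 (0.98, 0.88 and 0.97). Its inclusion and exclusion reads were 390 and 0 in siCtrl and 481 and 10 in siSNRPA1. In siSNRPB AMOTL1, which binds YAP1, rose (0.52, 0.40 and 0.82), and NF2, an activator of the Hippo kinases, fell at an exon that matched no annotated exon (0.20, 0.05 and 0.03).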

How the data were processed

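RNA of MDA-LM2 cells was sequenced from 6 libraries in 3 groups, with strand-specific total RNA libraries, per the labels' protocols. The submitters' processing notes name STAR 2.7 and hg38 without a role, and the column names are those of MISO. Its version and the way libraries were pooled were not given in the sources used here. The labels do not say whether replicates came from separate cultures. Each value column was matched to a pool or a comparison, with 0 left unmatched. Not all were used, and the reads assigned to each isoform were left out.

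Per the file headers the authors deposited, for each group, an inclusion level as a fraction from 0 to 1 (posterior mean, rounded to 2 decimals), the bounds of its interval and reads per isoform class. In 2 comparison files they deposited a score, the difference in level, and the Bayes factor, a ratio that grows with the evidence of a difference. The deposited differences equalled those of the summaries, within rounding, in 44653 of 44653 and 38112 of 38112 events.

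Where events shared a middle exon, 1 was taken (first those that met the read minimum, then by total informative reads), giving 40658 exons. Genes and places in genes came from GENCODE 29. Reads are not independent molecules, so Wilson intervals, limits from a count of 0 (3 counts) and Fisher's exact tests cover counting error only. The procedure was tried on simulated reads with the read share in place of the authors' level, so the rule on levels was not covered. The genes, lists and rules were chosen with earlier results of these data known. The text names each signalling exon that passed, gives in full the 5 largest changes per knockdown where the knockdown and control pools compared had 50 or more informative reads, and up to 3 exons per role that did not pass, taking levels of 0.1 to 0.9 in siCtrl first. From each further list it names up to 3 passing exons per comparison with siCtrl, and some exons outside this rule were chosen after their values were seen. A result that the rule would name is not reported here. Alternatives changed the read minimum, the smallest difference, the measure of inclusion, the read counts and the test. Python 3.11.15, scipy 1.17.1, numpy 2.4.6 and pandas 2.3.3 were used.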

Additional observations from a re-analysis of the deposited data

Results flagged for a closer look

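These 6 exons differed between the knockdowns by a direct test (Fisher's exact test on the reads of both pools, Benjamini-Hochberg adjustment over 5082 exons). The differences in inclusion level, siSNRPA1 minus siSNRPB, were 0.25 for SH2B1 (100 nt), 0.38 for SOS2 (99 nt), 0.14 for MAPK3 (51 nt) and 0.11 for MAP3K3 (93 nt). They were -0.36 for MAP2K7 (48 nt) and -0.24 for MAPK7 (18 nt). By the labels siSNRPA1 has 3 libraries and siSNRPB 1, with 7831446 and 3396043 informative reads, and the part of this in the differences was not tested.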

How the results depend on the processing

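With siSNRPA1 against siCtrl, the count of 10 passing signalling exons was 5 at a difference of at least 0.2, 2 with read counts divided by 2, 3 with reads scaled to the smallest pool and 5 with 1 exon per gene. It was 8 to 12 under the other settings. With siSNRPB against siCtrl, the count of 10 was 6 with a minimum of 50 informative reads, 4 with read counts divided by 2 and 5 with 1 exon per gene, and 8 to 11 otherwise. Between the knockdowns, the count of 6 was 2 with a minimum of 50 reads, 1 with read counts divided by 2, 3 with scaled reads and 2 with 1 exon per gene, and 4 to 9 otherwise. Fewer reads or fewer exons are tested by construction in each of these, and the larger difference is a stricter threshold. Of the 26 calls of named exons, 0 changed direction under any setting. This was fixed in advance, since a call needs level and reads to differ the same way, and no setting alters the deposited levels. With a minimum of 10 informative reads RICTOR no longer passed in siSNRPA1 (adjusted p = 0.050005, Fisher's exact test). With read counts divided by 2, 19 could be tested and 12 no longer passed. With scaled reads these numbers were 24 and 10, with intervals that do not overlap 26 and 6, 20 and 4 with a Bayes factor of at least 10, and with read shares 26 and 4. The 0 genes past 2-fold stayed 0 with a minimum of 100 reads and with all annotated events. No paired analysis was possible because each group has 1 pooled set of values, and no library could be left out. At these depths 61 of 114 exons had too few reads of the rarer form, or in a pool, for a test.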
